A study of Mus musculus with 24 samples.

Results

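Genes of immunogenic cell death and of the endoplasmic reticulum (ER) stress response were followed in RNA of CD45+ cells from murine breast tumors. The 10 genes were taken by symbol: the ER chaperones Calr, Canx, Hspa5, Hsp90b1 and Pdia3, the stress transcription factors Ddit3 and Atf4, the danger signals Hmgb1 and Anxa1, and the ATP receptor P2rx7. All 10 had a row among the 16996 genes with values. They were picked by name, with earlier results of these data known.

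The tumors grew from EMT6-hHER2 cells, a single-cell-sorted clone of a murine breast cancer line that carries human HER2, implanted in a mammary fat pad of female, immunocompetent Balb/c mice labelled WT and 10 to 12 weeks old. At a tumor volume of 80 mm3 the mice were left untreated or received 1 intravenous dose of trastuzumab at 20 mg/kg, T-DM1 at 15 mg/kg or T-PNU at 1 mg/kg. Trastuzumab is an antibody against human HER2, T-DM1 is trastuzumab carrying the microtubule poison DM1, and T-PNU is trastuzumab carrying an anthracycline derivative. Tumors were taken on day 10 from 6 mice per group and digested, CD45+ cells were enriched with magnetic beads, and 1 library was sequenced per mouse, 24 in all. The doses differed, so differences between agents are also differences between doses. The study gives a smaller volume for T-PNU tumors at harvest than at treatment, and reports that trastuzumab and T-DM1 did not prevent growth. Treatment and the state of the tumor at harvest therefore cannot be told apart. The study also describes high-responding and low-responding T-PNU samples. The labels do not name them, so the 6 T-PNU mice are kept as 1 group.

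Immunogenic cell death is a form of tumor cell death that alerts the immune system through molecules that dying cells expose or release. Calreticulin, the protein of Calr, moves from the ER to the cell surface and serves as a signal for engulfment, HMGB1 leaves the nucleus and engages Toll-like receptors, annexin A1 is sensed by formyl peptide receptors, and released ATP opens the P2rx7 channel of myeloid cells. Stress of the ER often precedes it: the kinase of Eif2ak3 (PERK) slows translation and raises ATF4, which drives Ddit3 (CHOP), while other branches of the unfolded protein response raise the chaperones. In mouse tumors the sensing side of this exchange, receptors included, lies largely in leukocytes, the cells enriched here. The values describe transcripts in this enriched fraction, which also held non-leukocyte RNA, and not the exposure or release of the proteins by tumor cells.

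Some of these genes share a known promoter element, the ER stress response element, in which CCAAT and CCACG stand 9 bases apart. It is shown because it marks which of the chaperones carry this textbook ER stress signal. In RefSeq promoters on GRCm38.p6, from 250 bases before to 50 after each gene's start, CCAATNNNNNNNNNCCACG on either strand was found in 39 of 32851 promoters, 0.119%, and in those of 4 of the 10 genes. The matches follow with 5 bases on each side, read on the strand that gives CCAAT first. Capitals mark CCAAT and CCACG.
Hspa5, chr2:34772020-34772048, plus strand: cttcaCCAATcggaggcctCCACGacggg
Calr, chr8:84847070-84847098, plus strand: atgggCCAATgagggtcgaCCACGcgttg
Canx, chr11:50325795-50325823, minus strand: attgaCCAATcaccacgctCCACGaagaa
Hsp90b1, chr10:86705633-86705661, minus strand: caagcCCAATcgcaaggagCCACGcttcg
Hsp90b1, chr10:86705528-86705556, plus strand: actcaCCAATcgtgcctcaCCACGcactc

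The elements of Hspa5, Canx and the first of Hsp90b1 lie on the strand of their gene, and those of Calr and the second of Hsp90b1 on the opposite strand. The Hspa5 element began 65 bases before the start of its RefSeq gene, that of Canx 145 and that of Calr 162. The 164 bases that hold both elements of Hsp90b1 show them facing each other, with the second as its complement (CGTGG, then ATTGG, in capitals).
Hsp90b1, chr10:86705513-86705676, minus strand: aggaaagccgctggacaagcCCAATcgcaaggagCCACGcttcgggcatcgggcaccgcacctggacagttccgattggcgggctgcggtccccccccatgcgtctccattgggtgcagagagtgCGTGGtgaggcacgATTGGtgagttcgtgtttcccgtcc

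Pdia3, the fifth chaperone, held no match in this window, which says only that these letters are not in it. The UPR element TGACGTGG, a site of ATF6 and XBP1, was found in 0.676% of promoters and in none of the 10. The amino acid response element TGATGNAA, a site of ATF4 and its partners, was found in 3.97% of promoters and in none of the 10. The 2 motifs therefore overlapped no ER stress response element in these genes. Both strands were searched for each.

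The values are log2 normalized expression, so a difference of 1 is 2-fold, and levels of different genes are not compared because they are not per length. A library's values ran from 1.13 to 19.7 in all 24, with medians of 8.73 to 8.87. The number of reads behind each value is unknown. Weights that limma estimated from each library's scatter ran from 0.215 to 2.83, the lowest being those of untreated B1 and C1 and T-PNU C2. The study's heatmaps leave out 4 libraries (B1 and C1 of the untreated group, E2 and B3 of the trastuzumab group), for reasons not given in the sources used here, so values and counts whose call changes in the other 20 samples are given with both. T-PNU and T-DM1 keep all their mice in the 20 samples, so the difference between them is the same in both fits. Only the spread estimated over all groups and the adjustment change, which makes this no check on different mice. The leukocyte genes Ptprc (CD45), Itgb2 and Coro1a together lay between 15.5 and 16.5 in every library (log2 of their summed linear values), and 7 tumor and stromal genes (Krt8, Krt18, Epcam, Col1a1, Col3a1, Fap and Pecam1) between 14.2 and 16.2, so non-leukocyte transcripts were present throughout. In bulk RNA, fewer cells of a type and less RNA per cell cannot be told apart.

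Most of the 10 genes differed little between groups. In limma's test over all genes (Benjamini-Hochberg adjusted p under 0.05, all 24 samples), none passed between any of the 3 treated groups and untreated, or between T-PNU and trastuzumab. All genes gave background calls of 0.188% for T-PNU against untreated, 6.27% for T-DM1 against untreated, 0.259% for trastuzumab against untreated and 0.00588% for T-PNU against trastuzumab. At an unadjusted p under 0.05 the members numbered 5, 2, 2 and 2 of 10 in these comparisons, where all genes gave 4218, 3973, 1491 and 3308 of 16996. Between T-PNU and T-DM1, 2 of 10 passed, P2rx7 higher and Atf4 lower in T-PNU, against 29.8% of all genes. Between T-DM1 and trastuzumab only Atf4 passed, higher with T-DM1, against 0.647% of all genes. In a test for any difference among the 4 groups, Atf4 and Hmgb1 passed, 2 of 10 against 18.8% of all genes. The comparisons share samples and are not independent of each other. One mouse moved the first comparison: without untreated C1, 4 of 10 passed between T-PNU and untreated (Hsp90b1, Hmgb1, Ddit3 and P2rx7), against 17.2% of all genes.

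**Figure D1:**
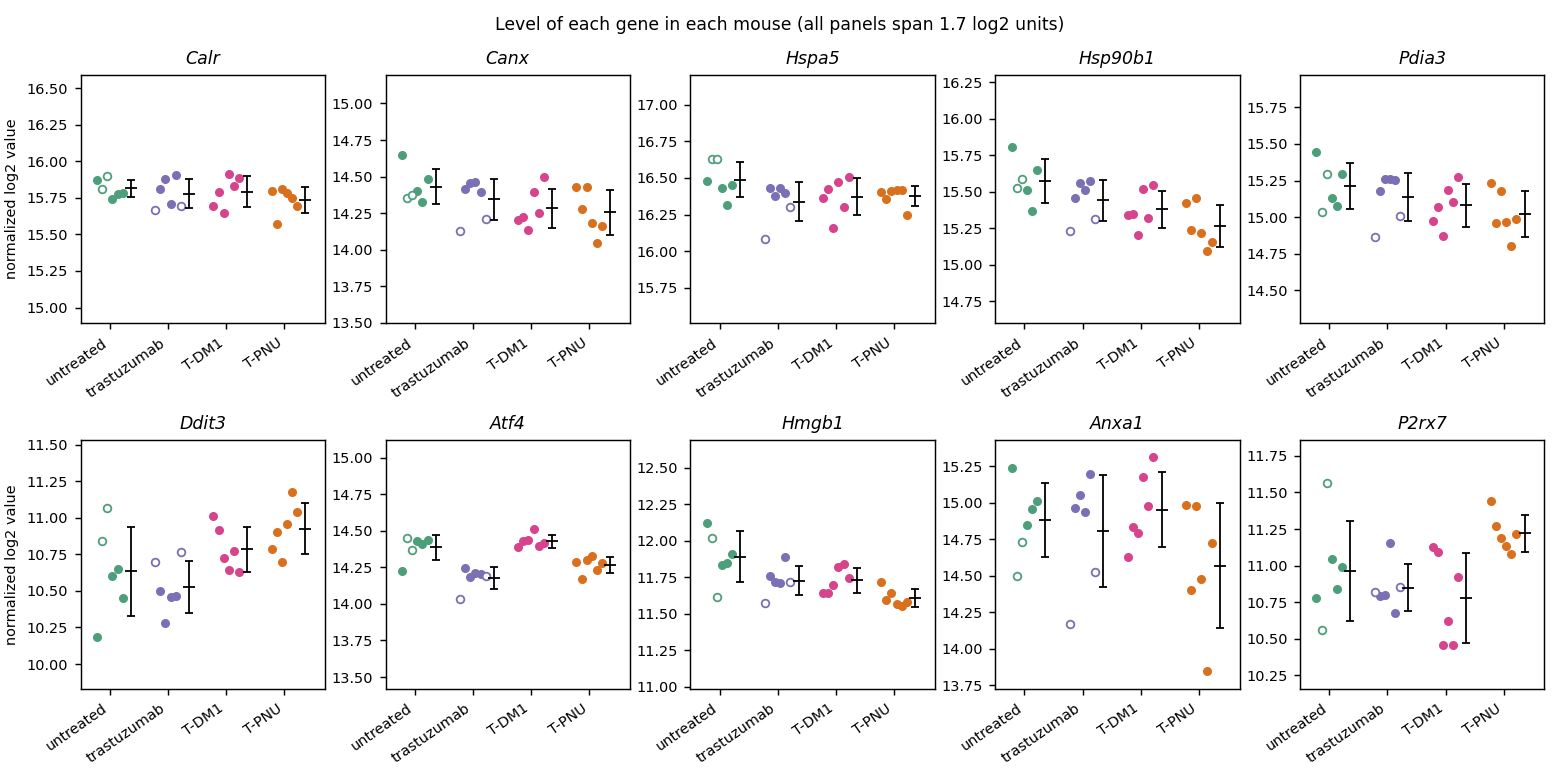
Normalized log2 value of each of the 10 genes (vertical axis) in each of the 24 mice by group, with the mean and SD of 6 mice as a black bar and open circles for the 4 samples absent from the study's heatmaps. Atf4 is the 1 gene with groups that do not overlap (T-DM1 above trastuzumab and above T-PNU), Anxa1 has the widest range (13.8 to 15.3), and the 5 chaperones span 0.344 to 0.714 log2 units over all mice.

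None of the ER chaperones passed in 24 samples. Calr, the calcium-binding lectin chaperone whose surface exposure marks immunogenic cell death, had group means from 15.7 in T-PNU to 15.8 in untreated, and all 24 mice lay between 15.6 and 15.9. Its difference between T-PNU and untreated was -0.08 (95% interval -0.22 to 0.06), so a fall of Calr transcripts by more than 0.22 on the log2 scale lies outside the interval. Canx, its membrane-bound partner, differed by -0.17 (-0.35 to 0.00). Hspa5, the ER Hsp70 (BiP) that holds the stress sensors inactive, differed by -0.11 (-0.28 to 0.06), and its T-PNU and T-DM1 means differed by 0.0027. Pdia3, the disulfide isomerase that works with Calr and Canx, differed by -0.19 (-0.39 to 0.01).

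Hsp90b1, the ER Hsp90 (GRP94) that folds Toll-like receptors and integrins, showed the largest chaperone difference. Its lowest, median and highest values were 15.4, 15.6 and 15.8 in untreated mice and 15.1, 15.2 and 15.5 in T-PNU mice. Trastuzumab and T-DM1 lay between, at medians of 15.5 and 15.3. T-PNU mice H1, B2, C2 and D2 lay below every untreated mouse, while T-PNU G1 and A2 overlapped with untreated E1. The difference of T-PNU from untreated was -0.31 ± 0.09 (SE, n = 6 and 6, limma adjusted p = 0.0714). In the 20 samples it passed, at -0.32 (limma adjusted p = 0.0187), as it did against trastuzumab at -0.26 (limma adjusted p = 0.0457 in 20 samples, 0.269 in 24). Leaving out untreated C1 or T-PNU G1 also gave a call against untreated (limma adjusted p = 0.0282 and 0.0401).

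All 5 chaperones had lower means in T-PNU than in untreated mice, in 24 and in 20 samples, with a median difference of -0.17 against 0.01 over all genes. In 24 samples this was not particular to T-PNU: all 5 were also lower than untreated with T-DM1 (median -0.13) and with trastuzumab (median -0.09). These comparisons all use the same untreated mice. In the 20 samples all 5 were lower with T-DM1 (median -0.16) and 3 of 5 with trastuzumab (median -0.01). The T-PNU median there was -0.21, and all 5 were also lower in T-PNU than in trastuzumab mice (median -0.18). In T-PNU minus T-DM1 the median of the 5 was -0.06, against 0.03 over all genes. With 20 samples, 31.1% of all genes passed between T-PNU and untreated, and 3 of the 10 were among them: Hsp90b1, Hmgb1 and Ddit3. In the same samples 28.0% passed between T-PNU and trastuzumab, with 3 of the 10 among them, Hsp90b1, Ddit3 and P2rx7. Both shares of the members were near those of all genes.

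**Figure D2:**
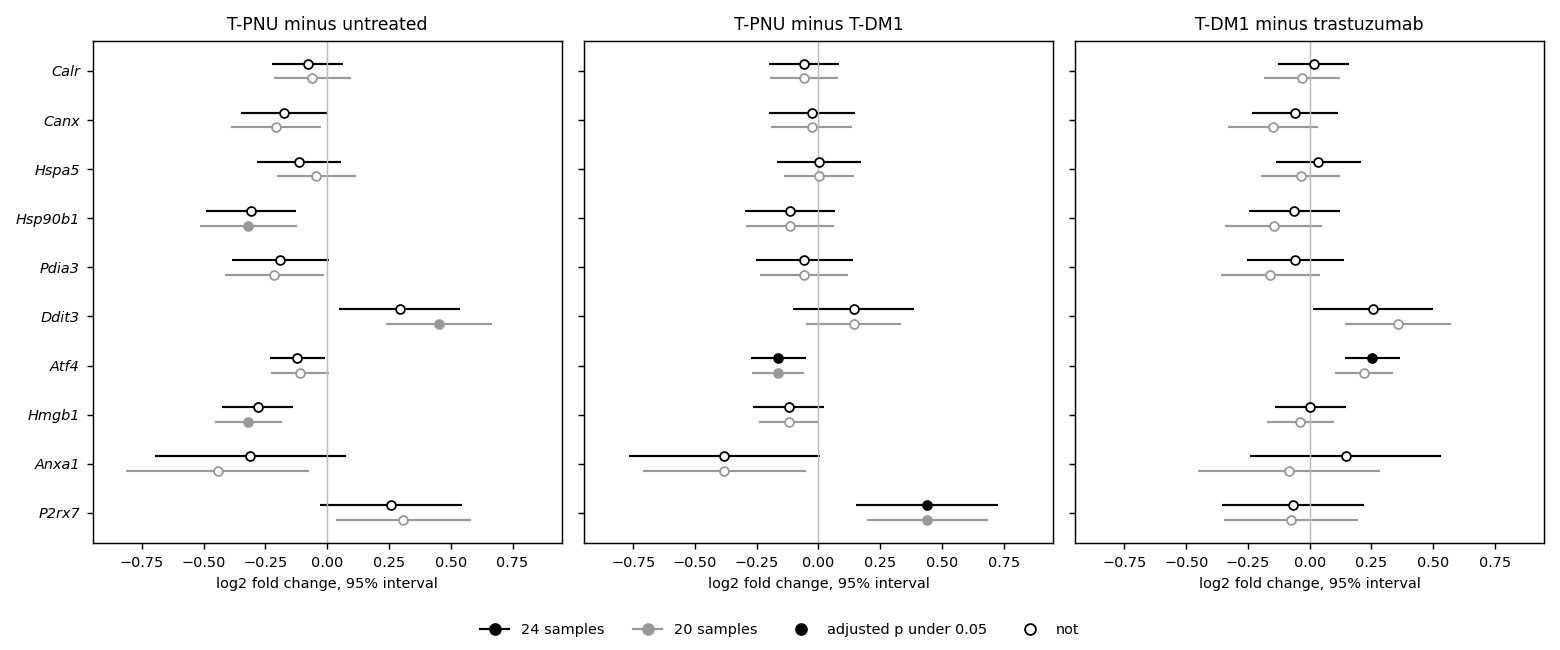
Log2 fold change of the 10 genes with 95% intervals in 3 comparisons, from fits of all 24 samples (black) and of the 20 samples in the study's heatmaps (grey), with filled circles where limma's adjusted p is under 0.05. In T-PNU minus untreated no black circle is filled, and grey ones are filled for Hsp90b1 (-0.32), Ddit3 (0.45) and Hmgb1 (-0.32), while Atf4 and P2rx7 are filled in both fits of T-PNU minus T-DM1, which hold the same T-PNU and T-DM1 mice.

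Ddit3 encodes CHOP, the transcription factor that turns lasting ER stress toward cell death. Its lowest, median and highest values were 10.7, 10.9 and 11.2 with T-PNU, 10.6, 10.8 and 11.0 with T-DM1, 10.2, 10.6 and 11.1 untreated, and 10.3, 10.5 and 10.8 with trastuzumab. T-PNU mice had the highest mean, but untreated C1 stood among the highest T-PNU mice and the untreated range covered that of every group but T-PNU at its top. The difference of T-PNU from untreated was 0.29 ± 0.12 (SE, limma adjusted p = 0.138), and 0.45 ± 0.10 in the 20 samples (limma adjusted p = 0.00604). From trastuzumab it was 0.40 ± 0.12 (limma adjusted p = 0.148), and 0.50 ± 0.10 in the 20 samples (limma adjusted p = 0.00688). Of T-PNU and T-DM1, the 2 groups with the highest means, the difference was 0.14 with an interval of -0.10 to 0.39. Untreated B1 and C1, which are not among the 20, had the 2 highest Ddit3 values of the untreated mice, 10.8 and 11.1. Without C1 alone the limma adjusted p was 0.0240.

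Atf4 (chr15:80255184-80257541, GRCm38, plus strand) encodes the factor through which PERK and other kinases of the integrated stress response act, and it lies upstream of Ddit3. Its lowest, median and highest values were 14.4, 14.4 and 14.5 with T-DM1, 14.2, 14.4 and 14.5 untreated, 14.2, 14.3 and 14.3 with T-PNU, and 14.0, 14.2 and 14.2 with trastuzumab. Every T-DM1 mouse lay above every trastuzumab mouse and above every T-PNU mouse. Of all genes, 13.2% had ranges that did not overlap between T-PNU and T-DM1, and 2.50% between T-DM1 and trastuzumab. Atf4 was the 1 member with such ranges in either comparison.

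Atf4 fell by 0.16 in T-PNU relative to T-DM1 (SE 0.05, limma adjusted p = 0.0267) and rose by 0.25 in T-DM1 relative to trastuzumab (SE 0.05, limma adjusted p = 0.0272). These are changes of 0.893-fold and 1.19-fold. The second call was lost in the 20 samples, at 0.22 (limma adjusted p = 0.0755), after quantile normalization, at 0.23 (limma adjusted p = 0.0761), and without 1 of trastuzumab E2, H2 or B3 or T-DM1 D3, E3 or F3 (limma adjusted p 0.0547 to 0.0863). The first was lost without T-DM1 F3, T-PNU H1 or T-PNU C2 (limma adjusted p 0.0534 to 0.0713). Cell type genes also differed between T-DM1 and trastuzumab. The macrophage gene C1qb (-0.88, limma adjusted p = 0.0306) and the dendritic cell gene Xcr1 (-1.42, limma adjusted p = 0.0232) were lower with T-DM1. In the same lists Ly6c2 (0.83, limma adjusted p = 0.0561) and Ccr7 (0.25, limma adjusted p = 0.904) were higher, and the remaining genes were lower without passing. Jun, induced by tissue digestion, stood at 0.49 (limma adjusted p = 0.0714). Their part in the Atf4 difference was not tested. Trastuzumab differed from untreated by -0.21 ± 0.05 (SE, limma adjusted p = 0.0943). In order of mean, T-DM1 and untreated, the 2 highest, differed by 0.04 (interval -0.07 to 0.15), untreated and T-PNU by -0.12 (T-PNU lower, -0.23 to -0.01) and T-PNU and trastuzumab by 0.09 (-0.02 to 0.20).

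Transcripts of Ddit3 and of Atf4 did not follow 1 order: T-PNU had the highest mean of Ddit3, while its mean of Atf4 was the third of the 4. Across mice, with group means removed, the correlation of the pair was r = 0.02 and rho = -0.21 (permutation p = 0.938 and 0.355, adjusted over 45 pairs 0.960 and 0.499).

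Hmgb1 (chr5:149046702-149184489, GRCm38, minus strand) encodes a DNA-bending chromatin protein that acts as a danger signal outside the cell. Its lowest, median and highest values were 11.6, 11.9 and 12.1 untreated, 11.6, 11.7 and 11.9 with trastuzumab, 11.6, 11.7 and 11.8 with T-DM1, and 11.6, 11.6 and 11.7 with T-PNU. T-PNU mice formed the lowest and tightest group, with an SD of 0.06 against 0.17 untreated, and untreated C1 at 11.6 was the 1 untreated mouse within the T-PNU range. The difference of T-PNU from untreated was -0.28 ± 0.07 (SE, limma adjusted p = 0.0583), which passed in the 20 samples at -0.32 (limma adjusted p = 0.00405). It also passed without untreated C1, trastuzumab E2 or T-PNU G1 (limma adjusted p 0.00359 to 0.0428). Hmgb1 passed the test among the 4 groups in 24 samples (limma adjusted p = 0.0362). Hmgb1 has many processed pseudogene copies, among which the counting of reads can be split, so its level is uncertain.

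Proliferation genes were also lower on average in T-PNU than in untreated mice: the sum of Mki67, Top2a, Ccnb1 and Cdk1 lay at 14.2 to 14.9 untreated, 14.1 to 14.6 with trastuzumab, 13.9 to 14.2 with T-DM1 and 13.4 to 14.4 with T-PNU, and 0 of the 4 passed between T-PNU and untreated. Their part in the Hmgb1 difference was not tested. By pattern over the 24 mice, the genes most like Hmgb1 were Gnl2 (r = 0.94), a ribosome biogenesis factor, Exosc8 (r = 0.93), a subunit of the RNA exosome, and Orc6 (r = 0.93), a subunit of the origin recognition complex.

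Anxa1 encodes annexin A1, a phospholipid-binding protein abundant in myeloid cells. Its lowest, median and highest values were 14.5, 14.9 and 15.2 untreated, 14.2, 14.9 and 15.2 with trastuzumab, 14.6, 14.9 and 15.3 with T-DM1, and 13.8, 14.6 and 15.0 with T-PNU. It was the most variable of the 10 over the mice, and T-PNU C2 (13.8) and trastuzumab E2 (14.2) were the lowest. T-PNU differed from T-DM1 by -0.38 ± 0.19 (SE, limma adjusted p = 0.121) and from untreated by -0.31 ± 0.19 (limma adjusted p = 0.289), and without T-PNU C2 the second difference was -0.17.

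P2rx7 (chr5:122643911-122691432, GRCm38, plus strand) encodes the ATP-gated channel that starts inflammasome assembly in macrophages and dendritic cells. Its lowest, median and highest values were 11.1, 11.2 and 11.4 with T-PNU, 10.6, 10.9 and 11.6 untreated, 10.7, 10.8 and 11.2 with trastuzumab, and 10.5, 10.8 and 11.1 with T-DM1. T-PNU mice were the highest on average, untreated C1 exceeded them all, and 2 of the T-DM1 mice reached the lower end of the T-PNU range. P2rx7 rose by 0.44 in T-PNU relative to T-DM1 (SE 0.14, 1.36-fold, limma adjusted p = 0.0218). The call was lost without T-DM1 E3, F3 or G3 (limma adjusted p 0.0523 to 0.0558), and every one of these fits kept the difference above 0.37. From untreated the difference was 0.26 ± 0.14 (SE, limma adjusted p = 0.243, and 0.0374 without untreated C1), and from trastuzumab 0.37 ± 0.14 (limma adjusted p = 0.181), the latter passing in the 20 samples at the same size (0.37, limma adjusted p = 0.0437).

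Most macrophage and monocyte genes were also higher in T-PNU than in T-DM1. The sum of Csf1r, Adgre1, Cd68, C1qa, C1qb and Ly6c2 lay at 16.7 to 17.2 with T-PNU and 16.1 to 16.7 with T-DM1. Of the 6, 3 passed between the 2 groups (Adgre1, C1qa and C1qb, all higher with T-PNU), where 29.8% of all genes did. Csf1r (0.32) and Cd68 (0.33) were higher without passing, and Ly6c2 stood at -0.01 (limma adjusted p = 0.965). Natural killer cell genes (3 of 3 measured) and 2 of 5 dendritic cell genes also passed as higher with T-PNU. Of the other dendritic cell genes, Flt3 (0.47) and Ccr7 (0.63) were higher and Zbtb46 (-0.06) lower, without passing. For T cell genes 0 of 6 passed, and for B cell genes 0 of 4. All 6 T cell genes (by 0.75 to 1.05) and all 4 B cell genes (by 0.91 to 1.26) nevertheless had higher means with T-PNU, with wide intervals. All 5 neutrophil genes had higher means with T-PNU, and 1 of them passed, Ly6g at 0.44 (limma adjusted p = 0.0421). Of 4 plasma cell genes Sdc1 passed, at -0.9995 in T-PNU relative to T-DM1 (limma adjusted p = 0.00174). The others did not go with it: Jchain stood at 0.36, Mzb1 at 0.46 and Derl3 at -0.05, and none of them passed. The part of cell composition in the P2rx7 difference was not tested. The genes whose pattern was most like that of P2rx7 were Ms4a14 (r = 0.93), Ifi207 (r = 0.92) and Thap6 (r = 0.92).

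The members were not independent of each other across mice. With group means removed, the 5 chaperones were positively correlated in all 10 pairs over 24 mice, from r = 0.51 (Canx and Hspa5) to 0.95 (Canx and Hsp90b1), with rho from 0.42 to 0.94. Canx, Hsp90b1 and Pdia3 formed the tightest trio (r of 0.93 to 0.95, permutation p = 1e-05, the smallest that 100000 permutations within groups can give, 5.62e-05 adjusted over 45 pairs). Without the 2 mice farthest from the median of Canx, its r was 0.93 with Hsp90b1 and 0.92 with Pdia3. The 10 chaperone pairs had adjusted p of 5.62e-05 to 0.0291 by r and 9e-05 to 0.0930 by rho. The weakest pair without 2 mice was Hspa5 and Pdia3, from r = 0.54 to 0.31 without trastuzumab E2 and T-DM1 E3.

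Anxa1 moved with that trio although its product is not an ER protein: r was 0.86 with Canx, 0.78 with Hsp90b1 and 0.88 with Pdia3 (rho 0.82, 0.78 and 0.89, adjusted permutation p of at most 0.000506 for each), and 0.85, 0.75 and 0.84 without 2 mice. Its r with Hspa5 was 0.27 (rho 0.22, adjusted permutation p = 0.310 and 0.437). The genes most like Anxa1 were Serpinb6a (r = 0.98), a serine protease inhibitor, Stk3 (r = 0.97), a Hippo pathway kinase, and Commd3 (r = 0.97).

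Ddit3 went the other way. Mice with more Ddit3 had less Canx (r = -0.78, rho = -0.82), less Hsp90b1 (r = -0.68, rho = -0.73), less Pdia3 (r = -0.65, rho = -0.76) and less Anxa1 (r = -0.76, rho = -0.81), with adjusted permutation p of at most 0.00529 for each r and each rho. Without 2 mice these r were -0.74, -0.56, -0.57 and -0.83. With Hspa5, the chaperone most used as a readout of ER stress, Ddit3 showed no such relation (r = -0.01, rho = -0.02, adjusted permutation p = 0.980 and 0.941). With Calr the relation was negative and did not pass (r = -0.31, rho = -0.41, adjusted permutation p = 0.205 and 0.0930). With Hmgb1 it was r = -0.67 (rho = -0.59, adjusted permutation p = 0.0114 and 0.0148), which came to -0.39 without C1 and A1 and so rests in part on those mice. Each point is 1 library, the genes of a point share its normalization and its mix of cells, and read depth was not available.

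**Figure D3:**
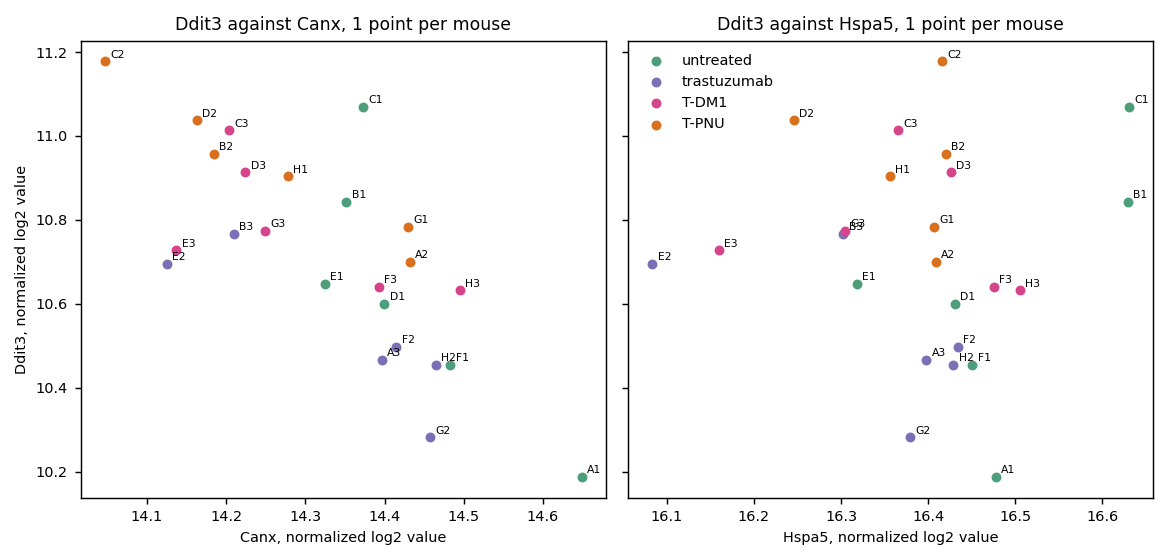
Ddit3 (vertical axis) against Canx (left) and Hspa5 (right), both as normalized log2 values, with 1 point per mouse, named and colored by group. Ddit3 declines as Canx rises from about 14.0 to 14.6, from T-PNU C2 (11.2) to untreated A1 (10.2), and shows no trend along Hspa5.

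**Figure D4:**
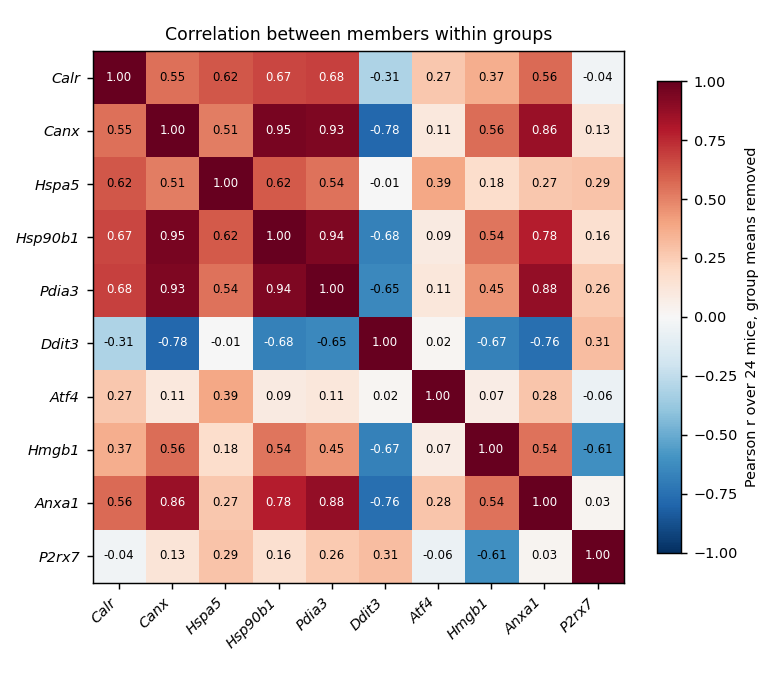
Pearson r between each pair of the 10 genes over 24 mice after each group's mean was removed (color and number, red positive and blue negative). Canx, Hsp90b1, Pdia3 and Anxa1 form a block of 0.78 to 0.95, and Ddit3 is negative with each of them (-0.65 to -0.78).

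Genes of other functions followed the chaperone pattern. Of 8408 other named genes in the upper part of the expression range (a mean over the median gene's), the 5 most like the mean deviation of the 5 chaperones were Brcc3 (r = 0.94), a deubiquitinase, Spidr (r = 0.93), a DNA repair scaffold, Cops5 (r = 0.92), the catalytic subunit of the COP9 signalosome, Rwdd1 (r = 0.92) and Copg2 (r = 0.92), a coatomer subunit. The 99th percentile of r over these genes was 0.87. The genes most like Ddit3 were Arl4d (r = 0.93), a small GTPase, Rnf114 (r = 0.93), a ubiquitin ligase, and Ubb (r = 0.90), a polyubiquitin gene. Those most like Atf4 were Jmjd6 (r = 0.81), Ankrd37 (r = 0.79) and Slc25a30 (r = 0.78), and with group means removed their r was 0.51, 0.48 and 0.70.

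The neighbours of the 10 genes in these pathways were read in 4 lists with 55 measured genes. Between T-PNU and untreated 0 of 55 passed by limma in 24 samples, where 0.188% of all genes did. At an unadjusted p under 0.05 they numbered 22, where all genes gave 4218 of 16996. In the 20 samples 23 passed, where 31.1% of all genes passed. Between T-PNU and T-DM1, 19 of 55 passed, 9 higher and 10 lower in T-PNU, where 29.8% of all genes passed. In the 20 samples 26 passed, 14 higher and 12 lower, against 39.9% of all genes. The passing shares of the lists were near those of all genes or moderately above them, and the excess was not tested. The count was 11 without T-DM1 E3, and 10 without T-DM1 F3 or without T-PNU H1, and 8 of the 19 passed whichever mouse was left out (Chac1, Creld2, Dnajb1, Edem1, Entpd1, Ppib, Prkcsh and Trib3). Against untreated the count rose from 0 to 11 without untreated C1, where 17.2% of all genes passed, and to 4 without T-PNU G1. Of these fits without 1 mouse, only that without C1 has its share over all genes given here.

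In the list of sensors and regulators of the unfolded protein response, 4 of 12 passed between T-PNU and T-DM1, where 29.8% of all genes did. Chac1, a glutathione-degrading enzyme induced by ATF4, fell by 0.68 (SE 0.15, limma adjusted p = 0.00362). Trib3, a pseudokinase induced by ATF4 and CHOP, fell by 0.54 (SE 0.12), and Asns, asparagine synthetase, another ATF4 target, fell by 0.63 (SE 0.21). Atf3, a stress-induced factor, rose by 0.50 (SE 0.16). The motif TGATGNAA was found in 7 of the 48 promoters of list genes, those of Chac1, Trib3, Asns, Atf3, Ager, Herpud1 and Nlrp3, and of these Ager (0.06), Herpud1 (-0.02) and Nlrp3 (0.24) did not pass. Eif2ak3 (PERK) differed most in the upward direction, by 0.78 ± 0.40 (SE, limma adjusted p = 0.139), and passed at the same size in the 20 samples (limma adjusted p = 0.0421) and with sample weights (limma adjusted p = 0.0369). Against untreated, the extremes in T-PNU were Asns at -0.74 ± 0.21 (limma adjusted p = 0.0696) and Eif2ak3 at 0.58 ± 0.40 (limma adjusted p = 0.348). In the 20 samples both differences were larger and passed, Asns at -0.96 (limma adjusted p = 0.00397) and Eif2ak3 at 0.94 (limma adjusted p = 0.0379). The median of the list was -0.01 against untreated and -0.07 against T-DM1.

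Of the other ER folding and degradation genes, 8 of 18 passed between T-PNU and T-DM1, where 29.8% of all genes did. The 5 that fell were Prkcsh, the beta subunit of glucosidase II, by 0.44, the disulfide isomerases Pdia6 by 0.35 and Pdia4 by 0.34, the cyclophilin Ppib by 0.32 and Creld2 by 0.28 (SE 0.07 to 0.12). The 3 that rose were Dnajb9, an Hspa5 cochaperone, by 0.39 (SE 0.13), Edem1, which marks misfolded glycoproteins for degradation, by 0.24 (SE 0.06), and Uggt1, the glucosyltransferase that returns unfolded glycoproteins to Calr and Canx, by 0.15 (SE 0.05), which did not pass after quantile normalization (0.11, limma adjusted p = 0.112). Against untreated the extremes were Pdia4 at -0.35 ± 0.11 (limma adjusted p = 0.0857) and Syvn1, an ER ubiquitin ligase, at 0.49 ± 0.16 (limma adjusted p = 0.0900). Both passed in the 20 samples, at -0.41 and 0.58 (limma adjusted p = 0.0146 and 0.00991). The ER stress response element was found in 4 of the 48 pathway promoters, those of Creld2, Dnajc3, Pdia6 and Syvn1.

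Collagen genes and Krt8 fell in the same comparison as these ER genes. The sum of the 7 tumor and stromal genes lay at 15.7 to 16.2 with T-DM1 and 14.2 to 15.2 with T-PNU, without overlap. Of the 7, 5 passed between these groups, where 29.8% of all genes did. Krt8 (-0.96), Col1a1 (-1.62) and Col3a1 (-1.38) were lower and Epcam (0.84) and Pecam1 (0.72) higher in T-PNU. No one of the 7 was below 6.34 in any mouse. Jun (-0.38) and Fosb (-0.49), 2 of 5 genes that tissue digestion induces, were also lower in T-PNU, and Ptprc, the CD45 gene used for the enrichment, was higher by 0.76 (limma adjusted p = 0.00569). The part of non-leukocyte RNA or of digestion in the ER gene differences, Atf4 included, was not tested.

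Of the cytosolic heat shock proteins, whose surface exposure also accompanies immunogenic cell death, 2 of 7 passed between T-PNU and T-DM1, where 29.8% of all genes did. Dnajb1, an Hsp70 cochaperone, fell by 0.57 (SE 0.17) and Hspa1b, an inducible Hsp70, by 0.59 (SE 0.22). The Hspa1b call was lost with sample weights (limma adjusted p = 0.0525) and without 1 of T-DM1 C3, D3 or E3 or T-PNU G1, H1, A2, C2 or D2 (limma adjusted p 0.0546 to 0.121). Hspa1a, the near-identical copy of Hspa1b, differed by 0.38 ± 0.23 (limma adjusted p = 0.207) in the other direction, and reads shared by the 2 copies make both uncertain. All 7 had lower means in T-PNU than in untreated mice (median -0.30), from Dnajb1 at -0.46 ± 0.17 (limma adjusted p = 0.104) to Hspa1a at -0.04 ± 0.23, and 0 passed. In the 20 samples Hspa1a stood at 0.20, so that not all 7 were lower there. With trastuzumab all 7 were also lower than untreated in 24 samples (median -0.23), and with T-DM1 5 of 7 were (median -0.16). In the 20 samples these falls nearly vanished, with medians of -0.03 for trastuzumab (4 of 7 lower) and -0.02 for T-DM1 (5 of 7 lower). The T-PNU median there was -0.26 (5 of 7 lower).

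Of 18 receptors of danger signals and genes that handle extracellular ATP, 5 passed between T-PNU and T-DM1, a share near that of all genes, and all 5 rose: Tlr4, a receptor for HMGB1, by 0.53 (SE 0.19), Entpd1 (CD39), which degrades extracellular ATP, by 0.50 (SE 0.15), the ATP channel P2rx4 by 0.42 (SE 0.15), Cd47, the signal against engulfment, by 0.30 (SE 0.10), and Myd88, the adaptor of Toll-like receptors, by 0.22 (SE 0.08), the last not passing after quantile normalization (limma adjusted p = 0.0628). The extremes were Panx1, a channel that releases ATP, at 0.64 ± 0.28 (limma adjusted p = 0.0840) and Lrp1, a receptor for calreticulin, at -0.43 ± 0.19 (limma adjusted p = 0.0955). Both passed in the 20 samples, which hold the same T-PNU and T-DM1 mice (limma adjusted p = 0.0252 and 0.0437), and with sample weights (limma adjusted p = 0.0141 and 0.0221). Against untreated, 14 of 18 had higher means in T-PNU, with a median of 0.20 where all genes had 0.01, and 0 passed. Trastuzumab also had higher means than untreated in 15 of 18 (median 0.09), and T-DM1 in 4 of 18 (median -0.09). Between T-PNU and trastuzumab, 9 were higher and 9 lower in T-PNU. The extremes of T-PNU against untreated were Panx1 at 0.50 ± 0.28 (limma adjusted p = 0.263) and Nt5e (CD73), which makes adenosine, at -0.54 ± 0.18 (limma adjusted p = 0.0961). Both passed in the 20 samples, at 0.78 and -0.70 (limma adjusted p = 0.0236 and 0.0123). Most of the macrophage and monocyte genes given beside P2rx7 were higher with T-PNU than with T-DM1, and their part in these differences was not tested.

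Between T-DM1 and untreated, 2 of 55 passed where 6.27% of all genes did: Sesn2, a stress-induced regulator of amino acid sensing, which rose by 0.36 (SE 0.11, limma adjusted p = 0.0444), and Uggt1, which fell by 0.20 (SE 0.05, limma adjusted p = 0.0229). Neither passed in the 20 samples (limma adjusted p = 0.132 and 0.0955), and the Sesn2 call was lost in 14 of 24 fits that left out 1 mouse. None of the 55 passed by limma in 24 samples between trastuzumab and untreated, T-PNU and trastuzumab, or T-DM1 and trastuzumab. At an unadjusted p under 0.05 they numbered 4, 15 and 12, where all genes gave 1491, 3308 and 2604 of 16996. In the 20 samples 22 of 55 passed between T-PNU and trastuzumab, 7 higher and 15 lower in T-PNU, against 28.0% of all genes, and none passed in the other two comparisons.

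**Figure D5:**
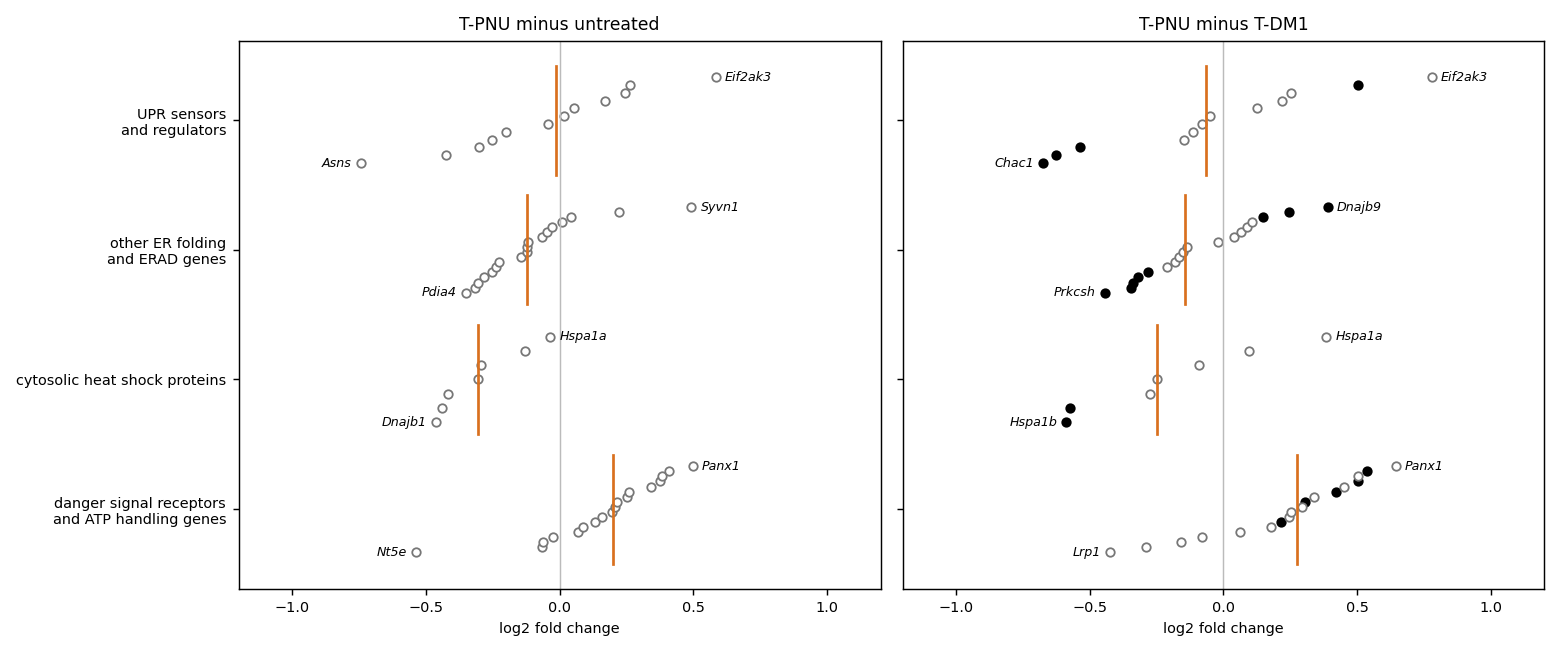
Log2 fold change of the 55 pathway genes in T-PNU minus untreated (left) and T-PNU minus T-DM1 (right), by list, filled where limma's adjusted p is under 0.05 in 24 samples, with the list median as an orange line and the lowest and highest gene named. No gene is filled on the left, 19 are filled on the right, and the median of the danger signal list is above 0 in both (0.20 and 0.27).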

How the data were processed

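CD45+ cells from EMT6-hHER2 tumors of 24 mice were profiled by stranded mRNA sequencing. Per the labels and the study's methods, the authors aligned the reads to mm10 with STAR 2.4.2a, counted them per gene by strand with featureCounts (Subread 1.5.0) and removed genes averaging under 5 counts. The deposited values are log2 expression normalized for library size. The transformation is not given in the sources used here. Values shrunken toward gene means, as such transformations give, would understate fold changes. Counts were not recovered, so the depth of each library is unknown and count models were not used, although the authors compared groups with DESeq2.

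Groups followed the labels, and nothing pairs mice across groups. A linear model was run in limma 3.58.1 under R 4.3.3 (4 groups in one fit, eBayes with a trend), and p-values were adjusted over all 16996 genes. Alternatives were the 20 samples of the heatmaps, quantile normalization, a filter on low values, fits of 2 groups, sample weights, no trend, the study's thresholds and each mouse left out. Correlations used 100000 permutations. Steps were tested on simulated data. GENCODE M21 (GRCm38) held 99.7% of the identifiers, and all 10 genes and 48 of 55 pathway genes matched a RefSeq promoter. Named were all 10 genes, each list's extremes and any that passed, and the genes most like each pattern. The members and lists were chosen with earlier results of these data known. Column headings number the untreated mice in a series of their own, so that series and treatment cannot be told apart.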

Additional observations from a re-analysis of the deposited data

Results flagged for a closer look

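In groups of 6 mice, 5 of 40 combinations of a gene and a group held a mouse whose gap to its nearest neighbour took more of the group's range than Dixon's critical value for 6 values allows, where chance alone flags about 5 in 100. For Hspa5, T-PNU D2 stood low at 16.2 with the next mouse at 16.4 (0.633 of the range). For Atf4, 3 groups held such a mouse: untreated A1 was low at 14.2 with the next at 14.4 (0.639), trastuzumab E2 low at 14.0 with the next at 14.2 (0.708), and T-DM1 F3 high at 14.5 with the next at 14.4 (0.628). For P2rx7, trastuzumab H2 was high at 11.2 with the next at 10.9 (0.630).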

How the results depend on the processing

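Of the counts of members that passed by limma, those of the 20 samples were 3 for T-PNU against untreated (31.1% of all genes), 3 for T-PNU against trastuzumab (28.0%), 0 for T-DM1 against trastuzumab (0.812%) and 5 among the 4 groups (40.8%). Sample weights gave 5 for T-PNU against untreated (34.3% of all genes), 2 for T-DM1 against untreated (19.4%), 1 for trastuzumab against untreated (1.15%), 1 for T-PNU against trastuzumab (13.3%), 2 for T-DM1 against trastuzumab (7.25%) and 5 among the groups (50.9%). The filter on low values gave 1 for T-PNU against untreated (1.06% of all genes kept). Both the filter and quantile normalization gave 0 for T-DM1 against trastuzumab, where 4 of 8498 genes kept and 85 of 16996 genes passed. The study's thresholds gave 0 for T-PNU against T-DM1 (1.91% of all genes) and 0 for T-DM1 against trastuzumab (0.0706%). With 1 mouse left out the counts ran from 0 to 4 for T-PNU against untreated (4 without untreated C1), 0 to 2 for T-PNU against T-DM1 (0 without T-DM1 F3), 0 to 1 for T-DM1 against trastuzumab and 1 to 4 among the groups. Of 56 single gene values, 1 changed sign, Hspa1a in T-PNU against untreated, to 0.20 in the 20 samples, 0.14 with sample weights and from -0.16 (without untreated F1) to 0.12 with 1 mouse left out (0.0035, 0.12, 0.07, 0.03 and 0.03 without untreated B1, C1 or D1 or T-PNU G1 or A2). The causes were not tested. No paired analysis was possible because the labels give mice of different groups no shared numbers. With depth unknown, no counting error could be given.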
